A study of Homo sapiens with 8 samples.

Results

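The genes described here encode the proteins that cap human chromosome ends: the shelterin genes TERF1, TERF2, TERF2IP, TINF2, ACD and POT1, the CST genes CTC1, STN1 and TEN1, and RTEL1. They were picked by symbol for their role at the telomere, 10 of the 28265 genes counted, with earlier results of these data known, and 9 of the 10 had counts in at least 1 library. The libraries are titled factory RNA-Seq, a method that sequences nascent RNA still attached to transcription sites, and come from IMR90, a human fetal lung fibroblast line. The 8 libraries, 2 per condition, were made from low-passage wild-type cells: control cells (titled young), cells after 3 days with ICM (inflachromene, a small molecule that binds HMGB proteins), cells after 6 days with ICM, and cells titled MetaICM, a treatment that neither the labels nor the study's text explains. GEO's protocol field instead gives total RNA with poly(A) selection for these libraries, so the exon counts may include mature mRNA. All come from a single line, and the labels do not say whether the replicates were separate cultures, so the p-values may measure only a technical spread.

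Human telomeres are TTAGGG repeats that end in a single-stranded overhang. In shelterin, the TRF1 (TERF1) and TRF2 (TERF2) proteins bind the double-stranded repeats, RAP1 (TERF2IP) binds TRF2, TIN2 (TINF2) bridges TRF1 and TRF2 to TPP1 (ACD), and POT1 binds the overhang together with TPP1. The complex keeps chromosome ends from being read as breaks, and TPP1 also recruits telomerase. CST helps DNA polymerase alpha-primase to fill in the C-rich strand, and RTEL1 is a helicase that unwinds telomeric loops and quadruplexes during replication. Fibroblasts such as IMR90 divide without active telomerase, and replicative senescence in them follows telomere shortening. None of these counts measures telomere length or protein.

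The libraries held between 12095123 and 23166405 counted read pairs (median 18642269), and each correlated best over genes with the other library of its condition. The summed level of 9 fibroblast markers was 23144 to 23307 CPM (counts scaled to the library's total count after normalization between libraries) in control, 12909 to 14287 after 3 days, 10960 to 11330 after 6 days and 20327 to 21225 in MetaICM. COL1A1 (a mean of 8448 CPM) and COL1A2 (6912 CPM) were the largest parts of the control sum. For 10 proliferation markers the sums were 2008 to 2065, 216 to 234, 196 to 200.2 CPM and, in both MetaICM libraries, 1188 CPM, with no marker at 0. The 4 epithelial markers summed to at most 1.29 CPM, the 4 leukocyte markers to at most 1.56 CPM and the 4 endothelial markers to at most 6.66 CPM. In bulk RNA, fewer cells of a type and less RNA per cell cannot be told apart.

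Under ICM the shelterin genes moved in different directions. TINF2 rose and ACD fell at both time points, though at 3 days both fell short of a call when some libraries were left out. POT1 rose at 6 days without a detected difference at 3 days. The levels of TERF1 and TERF2, which encode the double-strand binders, did not pass the test at either time. Conditions were compared 2 at a time with edgeR's quasi-likelihood test over all expressed genes, with Benjamini-Hochberg adjustment, and a gene counts as called with an adjusted p under 0.05 and an absolute log2 fold change (log2FC) over 0.6. After 3 days against control, 1 of the 9 members tested was called higher and 1 lower, where 8.85% and 13.2% of all 15692 genes tested were. After 6 days, 2 were called higher and 1 lower, where 13.3% and 17.2% of 15950 genes were. With 9 members these counts lie near that background and are no result about the genes as a group; the values below concern which of them moved. The comparisons against control share the 2 control libraries.

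**Figure D1:**
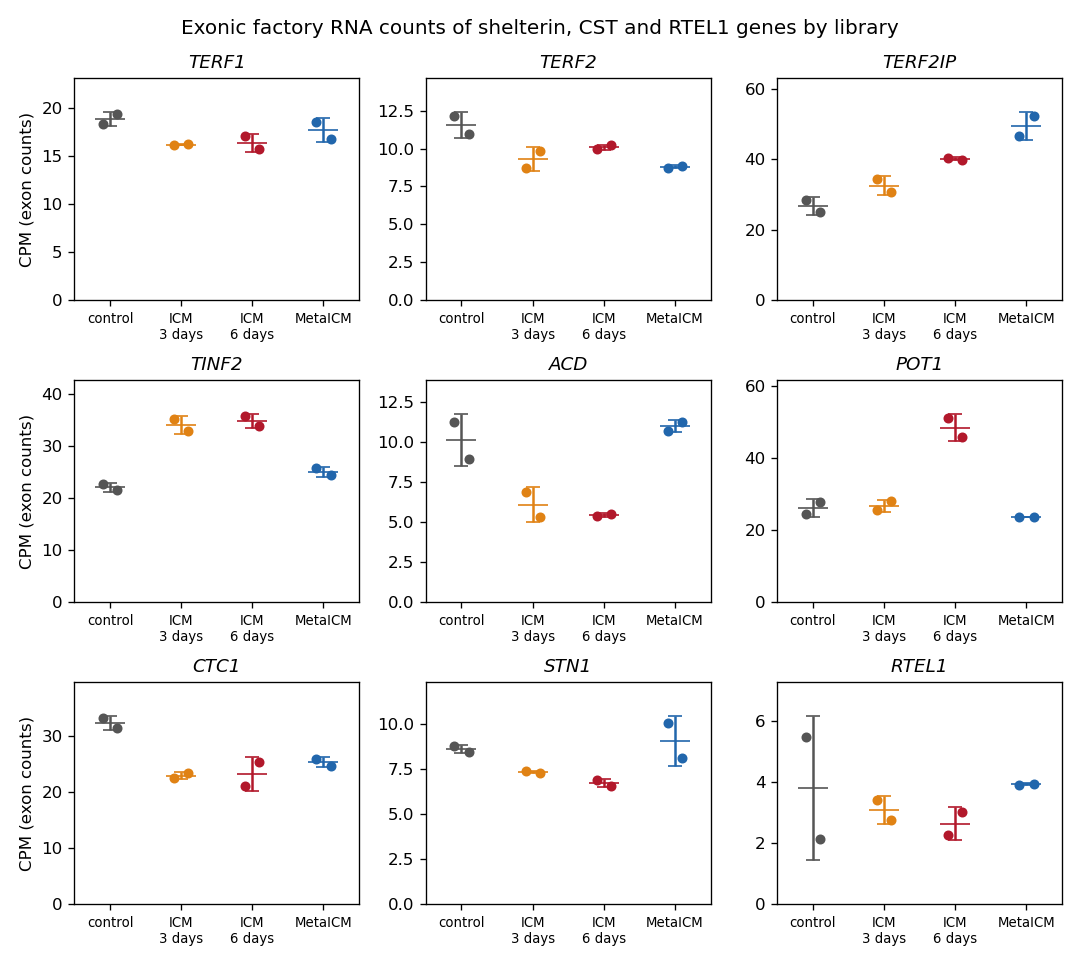
Level of each of the 9 measured genes in each library, in CPM of exon counts (y axis) by condition (x axis); points are libraries, the horizontal line is the mean and the bar 1 SD (n = 2). POT1 sits at 45.8 to 51.2 CPM after 6 days of ICM against at most 28.1 CPM in every other library, and both ACD levels under ICM lie below those of control and MetaICM.

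The 4 genes called in any comparison are shown with the sequence around their start, 250 bases before to 20 after it, since they share a complex but not a direction. The windows are RefSeq's on GRCh38.p14 and are printed along the gene's strand. Capitals mark GC boxes (GGGCGG), E2F sites (TTTCCCGC), CCAAT boxes (CCAAT) and ETS sites (CCGGAAG), on either strand, and neighbouring matches can run together.
POT1: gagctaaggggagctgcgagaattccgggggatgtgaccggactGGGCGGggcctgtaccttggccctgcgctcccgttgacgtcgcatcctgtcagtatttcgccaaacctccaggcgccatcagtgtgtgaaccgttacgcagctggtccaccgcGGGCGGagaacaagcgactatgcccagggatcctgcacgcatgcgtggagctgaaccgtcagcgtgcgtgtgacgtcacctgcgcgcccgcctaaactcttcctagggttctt
TINF2: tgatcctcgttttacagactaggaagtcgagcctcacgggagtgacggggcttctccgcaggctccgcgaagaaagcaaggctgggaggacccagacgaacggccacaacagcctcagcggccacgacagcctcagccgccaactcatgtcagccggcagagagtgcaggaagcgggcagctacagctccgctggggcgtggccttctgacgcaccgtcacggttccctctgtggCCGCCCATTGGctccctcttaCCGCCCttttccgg
ACD: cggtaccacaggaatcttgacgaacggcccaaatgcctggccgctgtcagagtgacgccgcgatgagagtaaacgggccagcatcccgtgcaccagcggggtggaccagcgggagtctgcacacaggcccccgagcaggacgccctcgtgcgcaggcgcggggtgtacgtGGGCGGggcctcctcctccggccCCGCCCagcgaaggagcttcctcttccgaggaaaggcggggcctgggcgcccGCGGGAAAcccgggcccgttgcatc
TERF2IP: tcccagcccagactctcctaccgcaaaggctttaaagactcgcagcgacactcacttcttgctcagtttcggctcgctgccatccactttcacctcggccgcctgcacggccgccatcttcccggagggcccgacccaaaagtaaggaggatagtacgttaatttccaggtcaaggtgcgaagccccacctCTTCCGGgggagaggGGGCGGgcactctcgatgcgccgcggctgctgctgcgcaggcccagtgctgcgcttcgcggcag
The POT1 window spans chr7:124929806-124930075, that of TINF2 chr14:24242655-24242924, that of ACD chr16:67660241-67660510 (all 3 on the minus strand) and that of TERF2IP chr16:75647523-75647792 on the plus strand. For TINF2, RefSeq lists a further start, and the window shown is that of the start listed first. Each of the 4 holds a GC box, as do 43.7% of all 35116 windows of this length. The E2F letters stood in the ACD window alone, on the opposite strand, beginning 5 bases before the start and running across it. They were in 1.50% of all windows. TTTGGCGC and TTTCGCGC, other E2F letters, were in none of the member windows and in 0.598% and 0.481% of all. The CCAAT letters were in the TINF2 window, beside a GC box and 9 bases before the start, and in 33.1% of all windows. The ETS letters were in that of TERF2IP, in the window of the further TINF2 start, in 1 of the RTEL1 windows and in 9.69% of all. The tables used here held windows for 6 of the 10 genes. A match in these letters is a description and no evidence that a factor binds.

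TINF2, which encodes the bridge TIN2, lies on chromosome 14 of hg19 (24708846 to 24711880, minus strand, 6 exons). Its level was 22.8 and 21.5 CPM in control, 35.3 and 32.9 CPM at day 3 of ICM, 35.8 and 34.0 CPM at day 6, and 25.8 and 24.4 CPM in MetaICM. Every ICM library stood above every control and MetaICM library. Relative to control, TINF2 had a log2FC of 0.62 at day 3 (standard error 0.15, adjusted p = 0.00767, edgeR) and 0.65 at day 6 (standard error 0.13, adjusted p = 0.00267, edgeR). Between the time points the difference was 0.03, with a 95% interval from −0.20 to 0.25. The 3-day call was close to the cutoff: it ended at 0.56 without control replicate 2 and at 0.55 without ICM 3-day replicate 1, where the lone remaining library is assumed to vary like the others. The 6-day value stayed between 0.61 and 0.69 with each library left out.

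ACD, which encodes TPP1, the partner of POT1 that recruits telomerase, lies on chromosome 16 (67691415 to 67694163, minus strand, 12 exons). It was measured at 11.2 and 8.95 CPM in control, 6.85 and 5.33 CPM after 3 days, 5.37 and 5.53 CPM after 6 days, and 10.7 and 11.3 CPM in MetaICM. The ICM libraries all lay below the others. ACD fell by 0.73 on the log2 scale after 3 days (standard error 0.23, adjusted p = 0.0315, edgeR) and by 0.90 after 6 days (standard error 0.20, adjusted p = 0.00435, edgeR), to 0.536 of the control level. From day 3 to day 6 the log2FC was −0.18, with a 95% interval from −0.60 to 0.24. These levels rest on 79 to 259 counts per library. The 3-day call was lost with DESeq2 (adjusted p = 0.0535), without control replicate 1 (−0.54) and without ICM 3-day replicate 2 (−0.55), whereas the 6-day log2FC stayed between −1.04 and −0.73 with each library left out. Of its exon bases, 58 are shared with CARMIL2 on the opposite strand, which had 5 to 24 counts per library, and pairs on shared bases were not counted.

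POT1, which encodes the overhang-binding protein, lies on chromosome 7 (124462440 to 124570037, minus strand, 21 exons). Its level was 24.5 and 27.9 CPM in control, 25.7 and 28.1 CPM after 3 days, 51.2 and 45.8 CPM after 6 days, and 23.7 and 23.8 CPM in MetaICM. The 6-day libraries stood apart, and those of control and 3 days overlapped. After 6 days POT1 was 1.85-fold higher than in control (log2FC 0.89, standard error 0.13, adjusted p = 0.000491, edgeR), and the value stayed between 0.78 and 0.98 with each library left out. After 3 days the log2FC was 0.03, with a 95% interval from −0.30 to 0.36. The step between the time points was tested directly: POT1 rose by 0.85 from day 3 to day 6 (standard error 0.11, adjusted p = 1.99e-05, edgeR). In that comparison POT1 was the 1 member called higher of 9, where 3.53% of 15845 genes were. The other members had a log2FC from day 3 to day 6 of 0.01 for TERF1 (95% interval from −0.26 to 0.29), 0.12 for TERF2 (−0.22 to 0.45), 0.02 for CTC1 (−0.24 to 0.27), −0.13 for STN1 (−0.51 to 0.25) and −0.24 for RTEL1 (−0.81 to 0.32). No member was called lower by edgeR or by DESeq2, and 0 had an unadjusted p under 0.05 in that direction, where 4.54% of all genes were called lower.

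POT1-AS1, a noncoding RNA gene looked up after its values were seen, starts 110 bases from POT1 and runs the other way (124569927 to 124785287, plus strand). The genes share 111 exon bases, and counting took both strands together, leaving out pairs on shared bases. POT1-AS1 stood at 6.07 and 8.20 CPM in control, 13.9 and 17.6 CPM after 3 days, 21.0 and 21.7 CPM after 6 days, and 7.73 and 7.69 CPM in MetaICM. All its ICM libraries were thus above control, including those of 3 days, in which POT1 overlapped with control. Relative to control its log2FC was 1.14 at day 3 (standard error 0.22, adjusted p = 0.00195, edgeR) and 1.59 at day 6 (standard error 0.18, adjusted p = 7.20e-05, edgeR). From day 3 to day 6 it was 0.45 (adjusted p = 0.0255, edgeR), short of the cutoff. Whether the difference between the pair at day 3 is larger than chance was not tested. TERF2IP also has a divergent neighbour: KARS1, the lysyl-tRNA synthetase gene, starts 50 bases away and had a log2FC against control of −0.17 after 3 days, 0.13 after 6 days and 0.11 in MetaICM, none of them called.

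**Figure D2:**
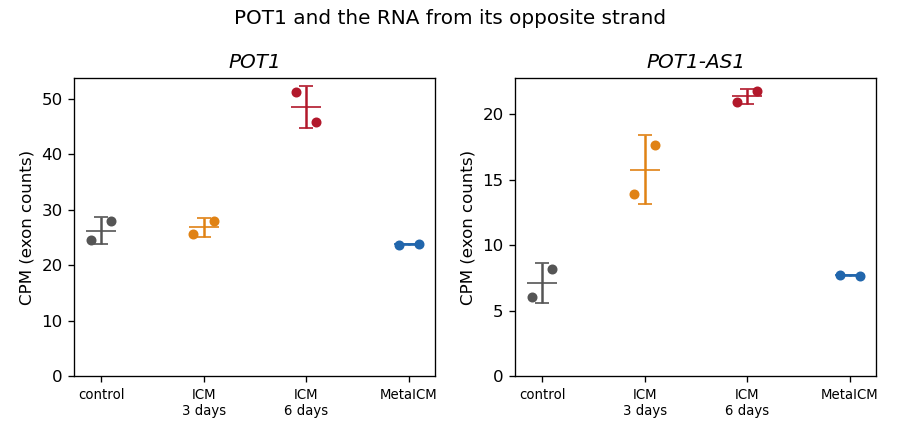
Levels of POT1 (left) and POT1-AS1 (right) in CPM of exon counts (y axis) by condition (x axis); points are libraries, lines the mean and bars 1 SD (n = 2). POT1 is raised in the 6-day libraries, at 45.8 to 51.2 CPM, while POT1-AS1 is above control in the 3-day libraries too, at 13.9 to 17.6 CPM.

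TERF2IP, which encodes RAP1 and lies on chromosome 16 (75681635 to 75691340, plus strand, 3 exons), had its highest levels in MetaICM. It stood at 28.5 and 24.9 CPM in control, 34.5 and 30.6 CPM after 3 days, 40.5 and 39.8 CPM after 6 days, and 46.5 and 52.2 CPM in MetaICM. No condition overlapped with another, in the order control, 3 days, 6 days and MetaICM. Against control the log2FC was 0.28 after 3 days (adjusted p = 0.186, edgeR), with a 95% interval from −0.05 to 0.61. After 6 days it was 0.58 (standard error 0.13, adjusted p = 0.00490, edgeR), past the p threshold and short of the cutoff of 0.6. The 6-day value crossed that cutoff with library totals (0.63), with all genes with a count (0.61), without control replicate 1 (0.68) and without ICM 6-day replicate 2 (0.60). The step from 3 to 6 days was 0.30 (adjusted p = 0.0633, edgeR).

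TERF1 and TERF2 encode the proteins on the double-stranded repeats, and neither was called in any of the 6 comparisons. TERF1 was measured at 18.3 and 19.3 CPM in control, 16.1 and 16.2 CPM after 3 days, 17.0 and 15.7 CPM after 6 days, and 18.5 and 16.8 CPM in MetaICM. TERF1 had a log2FC of −0.22 at day 3 (95% interval from −0.57 to 0.13), −0.20 after 6 days (−0.53 to 0.12) and −0.09 in MetaICM (−0.40 to 0.21). TERF2, on chromosome 16 (69389470 to 69419910, minus strand, 10 exons), stood at 12.1 and 10.9 CPM in control, 8.74 and 9.85 CPM after 3 days, 9.94 and 10.2 CPM after 6 days, and 8.72 and 8.86 CPM in MetaICM. Both control libraries of TERF2 were above all other libraries. Its log2FC was −0.32 after 3 days (adjusted p = 0.234, edgeR), −0.20 after 6 days (adjusted p = 0.348, edgeR) and −0.40 in MetaICM (adjusted p = 0.0934, edgeR).

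**Figure D3:**
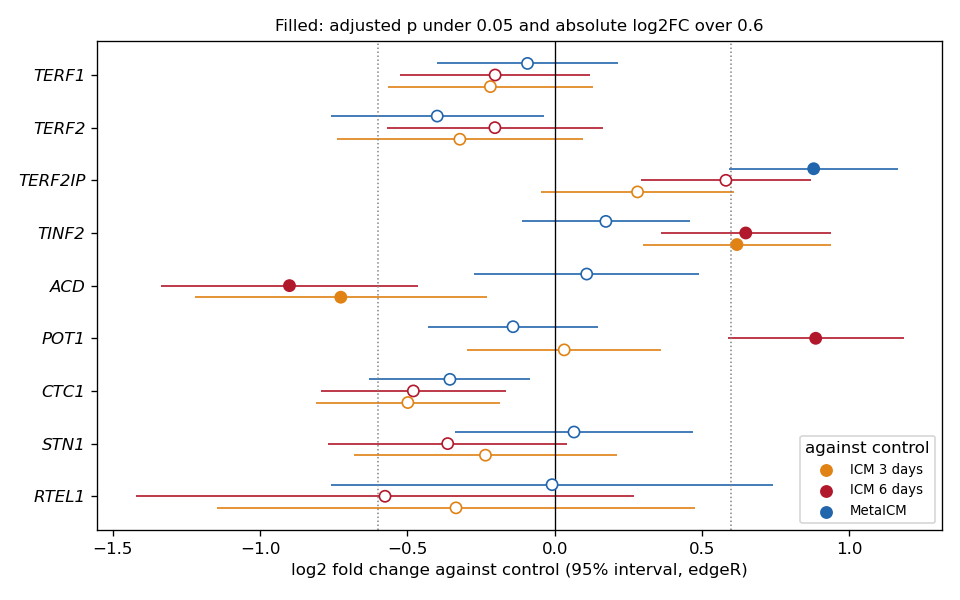
Log2 fold change against control of each measured gene (y axis) after 3 and 6 days of ICM and in MetaICM, with 95% intervals from edgeR's quasi-likelihood fit; filled points are called (adjusted p under 0.05 and past the cutoff of 0.6). TINF2 and ACD lie on opposite sides of 0 at both ICM time points, and POT1 is at 0.03 after 3 and 0.89 after 6 days.

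The counts of partner genes were also set against each other within a library, which needs no scaling between libraries. These ratios were chosen after the values were seen and carry no test. POT1 had 2.18 and 3.12 counts per ACD count in control, 3.74 and 5.27 after 3 days, 9.52 and 8.29 after 6 days, and 2.22 and 2.12 in MetaICM. TINF2 had 2.03 and 2.41 counts per ACD count in control, 5.15 and 6.18 after 3 days, 6.66 and 6.14 after 6 days, and 2.41 and 2.17 in MetaICM. For both pairs every ICM ratio was above every control and MetaICM ratio. TINF2 per TERF1 went from 1.25 and 1.12 in control to 2.19 and 2.03 after 3 days and 2.10 and 2.17 after 6 days, and was 1.39 and 1.46 in MetaICM. TERF1 per TERF2 stayed between 1.50 and 2.13 in all libraries.

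**Figure D4:**
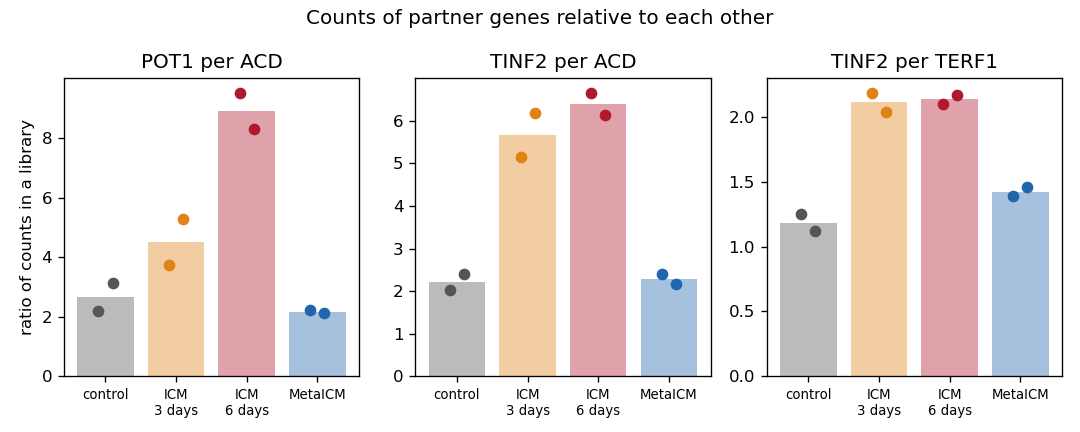
Ratio of exon counts of 2 shelterin genes within a library (y axis, from 0) by condition (x axis); bars are means and points the 2 libraries. POT1 per ACD reaches 8.29 to 9.52 after 6 days of ICM against 2.12 to 3.12 in control and MetaICM.

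The CST genes showed no call in any comparison. CTC1, the largest subunit (chromosome 17, 8128133 to 8151374, minus strand, 23 exons), was at 33.3 and 31.6 CPM in control, 22.6 and 23.4 CPM after 3 days, 21.2 and 25.5 CPM after 6 days, and 26.1 and 24.8 CPM in MetaICM. Both control libraries were above the other 6. Its log2FC was −0.50 after 3 days (standard error 0.14, adjusted p = 0.0214, edgeR) and −0.48 after 6 days (standard error 0.14, adjusted p = 0.0199, edgeR), which pass the p threshold and fall short of the cutoff, and −0.36 in MetaICM (adjusted p = 0.0549, edgeR). The 6-day value did not pass the p threshold under every alternative that kept all libraries. With each library left out the CTC1 log2FC lay between −0.55 and −0.46 at day 3 and between −0.61 and −0.35 at day 6. STN1 (chromosome 10, 105637327 to 105677942, minus strand, 10 exons) was the least expressed of the reliably measured genes for its length. It stood at 8.75 and 8.45 CPM in control, 7.36 and 7.29 CPM after 3 days, 6.88 and 6.54 CPM after 6 days, and 10.01 and 8.08 CPM in MetaICM. The ICM libraries were below the others, with a log2FC of −0.23 after 3 days (adjusted p = 0.424, edgeR) and −0.36 after 6 days (adjusted p = 0.136, edgeR). CTC1 per STN1 counts ranged from 2.604 to 3.894 over all libraries.

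TEN1 and RTEL1 could not be measured like the others, because readthrough transcripts share their exons. TEN1, the third CST subunit (chromosome 17, 73975321 to 73996667, plus strand), has 974 exon bases, all of which also belong to TEN1-CDK3. Since pairs on more than 1 gene were left out, its count of 0 in all 8 libraries is set by the counting and says nothing of its expression. TEN1-CDK3 itself had 2 to 25 counts per library. RTEL1 (chromosome 20, 62289163 to 62327606, plus strand, 35 exons) shares 4726 of its 5197 exon bases, 90.9%, with RTEL1-TNFRSF6B, which leaves 471 bases. Of these, 72 (62293827 to 62293898) are coding and 399 (62327208 to 62327606) lie in the 3′ UTR. On them RTEL1 had 92 and 26 counts in control, 74 and 41 after 3 days, 42 and 57 after 6 days, and 79 and 91 in MetaICM. In CPM the control libraries were at 5.47 and 2.15, a range that held every other library. Its log2FC against control of −0.33 after 3 days and −0.58 after 6 days did not pass the test, and both moved with 1 library: without control replicate 2 they were −0.83 and −1.05 and were called, and without control replicate 1 they were 0.53 and 0.28.

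Compared per kilobase of exon not shared with another gene, and with RTEL1 left aside, TERF2IP and TINF2 had the highest mean levels of the measured members in every condition. In control TERF2IP stood at 11.6 ± 1.09 CPM per kb (SD, n = 2) and TINF2 at 10.2 ± 0.403, with overlapping SD bars. ACD (6.95 ± 1.12), POT1 (6.26 ± 0.576) and TERF1 (5.64 ± 0.221) each had an SD bar that overlapped that of its neighbour in that order, above CTC1 (4.60 ± 0.170), TERF2 (3.85 ± 0.283) and STN1 (1.35 ± 0.0327). After 6 days of ICM the order, RTEL1 left aside, began with TERF2IP (17.4 ± 0.213), TINF2 (16.0 ± 0.588), POT1 (11.6 ± 0.899), TERF1 (4.91 ± 0.287) and ACD (3.75 ± 0.0759), with no overlap of neighbouring SD bars among these. TERF2 (3.36 ± 0.0630), CTC1 (3.31 ± 0.431) and STN1 (1.05 ± 0.0376) followed. The SD bar of CTC1 overlapped those of TERF2 and ACD. In MetaICM, ACD at 7.55 ± 0.268 was again above POT1 at 5.68 ± 0.0130. RTEL1, on its 471 bases, was at 8.10 ± 4.98 in control, too wide a spread to place it.

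MetaICM was set against control and against each ICM time point. Against control, 1 member was called higher, TERF2IP, where 7.41% of 15904 genes were. None was called lower by edgeR or DESeq2, with 2 at an unadjusted p under 0.05 (TERF2 and CTC1), where 8.99% of genes were called lower. TERF2IP was 1.84-fold higher in MetaICM than in control (log2FC 0.88, standard error 0.13, adjusted p = 0.00155, edgeR), and the log2FC stayed between 0.79 and 0.99 with each library left out. The log2FC of the genes that moved under ICM was 0.17 for TINF2 (95% interval from −0.11 to 0.46), 0.11 for ACD (−0.27 to 0.49) and −0.14 for POT1 (−0.43 to 0.15). It was 0.07 for STN1 (−0.34 to 0.47) and −0.01 for RTEL1 (−0.76 to 0.74).

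Set against 6 days of ICM, MetaICM had 1 member called higher and 1 lower, where 15.7% and 12.0% of 16036 genes were. ACD was 2.01-fold higher (log2FC 1.01, standard error 0.15, adjusted p = 9.39e-06, edgeR) and POT1 fell by 1.03 on the log2 scale (standard error 0.09, adjusted p = 2.84e-09, edgeR). TINF2 (−0.48, adjusted p = 0.000121), TERF2IP (0.30, adjusted p = 0.00486), STN1 (0.43, adjusted p = 0.0293) and RTEL1 (0.57, adjusted p = 0.0371, all edgeR) passed the p threshold and not the cutoff. Without ICM 6-day replicate 2, RTEL1 was called at 0.80. TERF1 (0.11), TERF2 (−0.20) and CTC1 (0.12) did not pass the p threshold. Set against 3 days of ICM, 2 members were called higher, ACD at 0.84 (standard error 0.17, adjusted p = 0.00122, edgeR) and TERF2IP at 0.60 (standard error 0.10, adjusted p = 0.000301, edgeR), where 13.1% of 16209 genes were. The TERF2IP call lay at the cutoff and was lost under 6 alternatives, with values down to 0.51 without MetaICM replicate 2 and 0.52 without ICM 3-day replicate 2. No member was called lower by edgeR or DESeq2, with 1 at an unadjusted p under 0.05 (TINF2 at −0.44, adjusted p = 0.00297), where 10.3% of genes were called lower. The remaining values were 0.13 for TERF1, −0.07 for TERF2, −0.17 for POT1, 0.15 for CTC1, 0.30 for STN1 and 0.34 for RTEL1, none past the p threshold.

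Genes that work with shelterin and CST at the telomere were counted from 4 lists, with the share of all genes called given beside each count. Of 7 genes for C-strand fill-in and single-strand binding, 5 fell after 3 days and 4 after 6 days of ICM (13.2% and 17.2% of all genes did), with a median log2FC of −1.24 and −1.06, where the median of all genes tested was 0.01 and −0.00. None was called higher by edgeR or DESeq2 at either time, and 0 had an unadjusted p under 0.05 in that direction. All 4 subunits of DNA polymerase alpha-primase, the enzyme that CST brings to the C strand, were among those that fell. The primase catalytic subunit gene PRIM1 had a log2FC of −2.90 at day 3 and −2.73 at day 6, POLA1 of −2.29 and −2.28, POLA2 of −1.43 and −1.06, and PRIM2 of −1.24 and −1.20. PRIM1 stood at 8.76 ± 1.20 CPM (SD, n = 2) in control and 1.31 ± 0.123 CPM at day 6. In MetaICM none of the 7 was called by edgeR or DESeq2 in either direction, with 2 lower at an unadjusted p under 0.05.

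Of 20 partners of shelterin and end-processing genes, 7 fell after 3 days (13.2% of all genes did), and 6 fell and 1 rose after 6 days (17.2% and 13.3% of all genes), with medians of −0.18 and −0.23. None was called higher after 3 days by edgeR or DESeq2, with 2 at an unadjusted p under 0.05. BLM, a helicase that acts in recombination, had a log2FC of −3.32 and −4.03, and the nuclease EXO1 of −2.24 and −2.51. DCLRE1B, which encodes the TRF2-bound nuclease Apollo, had −0.99 and −1.33, and the flap nuclease FEN1 −0.97 and −1.23, all 4 of them called at both times. Of 11 telomeric chromatin genes, 4 fell and 1 rose after 3 days (13.2% and 8.85% of all genes) and 5 fell and 1 rose after 6 days (17.2% and 13.3%), with medians of −0.41 and −0.62. The histone chaperones ASF1B and ASF1A went in opposite directions: ASF1B had a log2FC of −2.84 and −3.35, and ASF1A rose by 1.34 and 1.41. The histone methyltransferase gene SUV39H1 had −1.20 and −1.48, and CBX5, which encodes HP1 alpha, −1.07 and −0.93. In MetaICM against control, 3 of the partner genes fell, with BLM at −0.89, and 1 rose (8.99% and 7.41% of all genes). Among the chromatin genes 1 fell, CBX5 at −0.65 (8.99% of all genes).

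Telomerase genes were called in both directions at day 3. Of 12 tested, 2 were called higher and 4 lower after 3 days (8.85% and 13.2% of all genes), and 2 higher after 6 days (13.3% of all genes), with medians of −0.37 and −0.12. DESeq2 called 1 of the 4 lower at day 3. This was DKC1, with an edgeR log2FC of −0.63 (adjusted p = 0.00949 with edgeR and 0.00462 with DESeq2). After 6 days none was called lower by edgeR or DESeq2, with 2 at an unadjusted p under 0.05. TERC, the telomerase RNA, rose by 0.63 after 3 days (adjusted p = 0.0137, edgeR) and by 1.00 after 6 days (adjusted p = 0.000721, edgeR), from a mean of 14.6 CPM in control to 22.5 and 29.3 CPM. NOP10, a protein of the same particle, rose by 0.73 and 0.94. PINX1, an inhibitor of telomerase, had a log2FC of −0.86 after 3 days (adjusted p = 0.0280 with edgeR and 0.0580 with DESeq2). GAR1, of the same particle as NOP10, had −0.77 (adjusted p = 0.0487 with edgeR and 0.0981 with DESeq2), so neither call held with DESeq2, and after 6 days their values of −0.44 and −0.38 were not called. TERT, the catalytic subunit, had 0 counts in all 8 libraries and was not tested. In MetaICM, 2 telomerase genes were called higher, NOP10 among them at 0.71, and 1 with DESeq2, where 7.41% of all genes were called higher by edgeR. Of 10 proliferation markers, 9 fell at both ICM time points (13.2% and 17.2% of all genes did), with medians of −2.69 and −2.73. In MetaICM 2 of them fell (8.99% of all genes did), with a median of −0.45. Some list genes are also used in ordinary DNA replication, and the part of the drop in proliferation and fibroblast markers in the values of the lists or members was not tested.

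**Figure D5:**
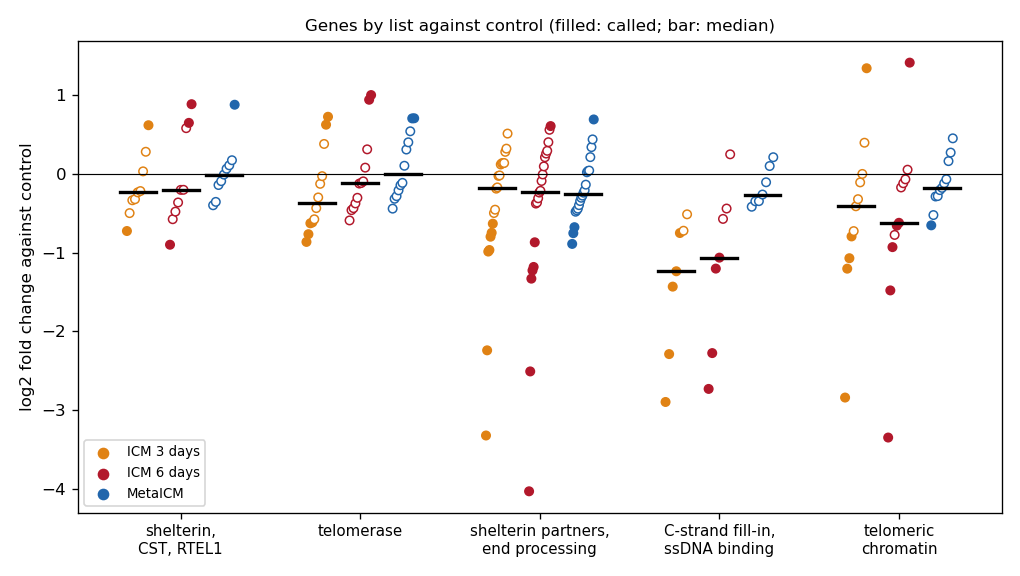
Log2 fold change of each tested gene (points) against control (y axis) for the shelterin, CST and RTEL1 genes and each telomere list (x axis), filled where called and with the list's median as a line, after 3 and 6 days of ICM and in MetaICM. The C-strand fill-in list has medians of −1.24 and −1.06 under ICM, and the shelterin, CST and RTEL1 genes of −0.23 and −0.20.

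For the 3 members called under ICM, the genes whose log2 CPM followed them most closely over the 8 libraries were looked up. They were P4HA1 (Pearson's r = 0.999), ZKSCAN1 (0.997) and COG3 (0.995) for TINF2. P4HA1, which encodes a collagen prolyl hydroxylase, went from 141 CPM in control to 320.4 and 334 CPM under ICM and 181 CPM in MetaICM. For ACD they were OLFML3 (0.996), WDR5 (0.990) and KCNG2 (0.990). For POT1 they were SEC24A (0.989), which encodes a coat protein of secretory vesicles, ANKRD46 (0.988) and PPIL4 (0.985). ANKRD46 stood at 8.57 CPM in control, 8.54 CPM after 3 days, 13.6 CPM after 6 days and 8.19 CPM in MetaICM. These values describe 8 libraries in 4 conditions and were picked as the highest over all genes.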

How the data were processed

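For each of the 8 IMR90 factory RNA-Seq libraries, STAR (version 2.6.0c, per the submitters' processing notes) was run by the authors against GRCh37 (hg19), and they deposited the raw counts of read pairs on the exons of each RefSeq gene, obtained with featureCounts 1.6.3. Per the file headers, both strands were counted together, and chimeric pairs, pairs with 1 mapped end and pairs on several genes or places were left out. The deposited counts hold exonic pairs only, and the intronic counts on which the study's own nascent values rest were not used here. Totals of 12095123 to 23166405 pairs limit the precision of genes with few counts.

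Each pair of conditions was fitted on its own 4 libraries with edgeR 4.0.16 (R 4.3.3): TMM normalization, filterByExpr with a count minimum of 10, the quasi-likelihood test, and Benjamini-Hochberg adjustment over all genes tested. A gene was called with an adjusted p under 0.05 and an absolute log2FC over 0.6. The study's methods give an adjusted p of 0.01, which was run as an alternative. The other alternatives were DESeq2 1.42.0, DESeq2's size factors or library totals for scaling, other count filters, a joint fit of all 8 libraries, a replicate block and each library left out. The fits were tested on simulated data. CPM values use library totals scaled by TMM over all 8 libraries, whereas log2FC uses the TMM of each fit's own 4 libraries. Shared exon bases were computed from the exon coordinates beside the counts. Promoter windows are RefSeq's (GRCh38.p14), shortened to 270 bases; no coordinates were converted between builds. No pairing of replicates is stated, so same-numbered replicates were not paired. Their deviations had correlations over genes from −0.111 to 0.172, the highest for control and 3 days of ICM.

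The 9 members with counts are given in every comparison. Of each other telomere list, up to 4 called genes with the largest change under ICM are named, and for each member called under ICM the 3 genes with the highest correlation. DKC1 was added as the telomerase gene that DESeq2 also called lower at day 3. The members and lists were chosen with earlier results of these data known. Tables were handled with Python 3.11.15, pandas 2.3.3 and numpy 2.4.6, and figures drawn with matplotlib 3.10.9.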

Additional observations from a re-analysis of the deposited data

Results flagged for a closer look

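These are the members called in a direct edgeR test of 2 treatments, by both the p threshold and the cutoff of 0.6. Members past the p threshold alone are not listed. TINF2 was such a member in MetaICM, at −0.48 against 6 days and −0.44 against 3 days of ICM. Against 6 days, TERF2IP, STN1 and RTEL1 were too. POT1 was higher after 6 than after 3 days of ICM, by a log2FC of 0.85. In MetaICM against 6 days of ICM, ACD was higher by 1.01 and POT1 differed by −1.03. In MetaICM against 3 days of ICM, ACD was higher by 0.84 and TERF2IP by 0.60, the latter at the cutoff. In all 5 called differences the libraries of the 2 groups did not overlap. Since the 5 were picked by a test on these same libraries, this adds no support. With 2 libraries per condition, no library could be tested as an outlier.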

How the results depend on the processing

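The counts of members called were 2, 3 and 1 for 3 days against control, 6 days against control and 6 against 3 days, and 1, 2 and 2 for MetaICM against control, 6 days and 3 days. With the replicate block they were 2, 3, 1, 1, 2 and 2, and no member's call changed. For 3 days against control, DESeq2 and an adjusted p of 0.01 each gave 1, and leaving out each library gave 1 to 2. For MetaICM against control, leaving out each library gave 1 to 2. For MetaICM against 3 days, DESeq2, DESeq2's size factors, library totals and all 8 libraries in one fit each gave 1, and leaving out each library gave 1 to 2. The ACD log2FC after 3 days had adjusted p values from 0.00163 to 0.0535 over the alternatives that kept all libraries. RTEL1 in MetaICM against control reversed from −0.01 to 0.87 without control replicate 1 (range −0.48 to 0.87 over the libraries left out). Over all genes, 3456 calls for 3 days against control became 2301 without ICM 3-day replicate 1, and 2609 calls for MetaICM against control became 1532 at an adjusted p of 0.01, 4086 without control replicate 1, 1623 without MetaICM replicate 1 and 1049 without MetaICM replicate 2. Library totals moved the share of higher calls for 3 days against control from 40.2% to 50.3%. The causes were not tested. RTEL1 rests on 26 to 92 counts per library.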
